A study of Homo sapiens with 8 samples.

Results

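NRF2, encoded by NFE2L2, is the transcription factor of the antioxidant response, and KEAP1 encodes the adaptor protein that holds it in check. These 2 genes were followed here with 7 target genes: GCLC, GCLM and SLC7A11 of glutathione supply, TXNRD1 and SRXN1 of the thioredoxin and peroxiredoxin systems, and NQO1 and ME1 of quinone reduction and NADPH supply. The 9 genes were picked by name from the 25945 genes listed, and all 9 were among the 14528 tested. RNA came from MiaPaCa-2 cells, a long-established line from a human pancreatic carcinoma. Cells had received a scrambled siRNA as control (genotype labelled WT) or one directed against BARD1 (genotype labelled BARD1 knockdown) and were harvested after 48 h, with 4 libraries per siRNA, numbered 1 to 4 in each. The labels name no separate cultures, so p-values reflect only how far these libraries spread, which may be technical. In bulk RNA, fewer cells of a kind and less RNA per cell cannot be told apart.

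KEAP1 binds NRF2 and presents it to the CUL3 ubiquitin ligase, so that NRF2 protein is degraded in unstressed cells. Electrophiles and oxidants modify cysteines of KEAP1, and NRF2 then accumulates, pairs with a small MAF protein and binds antioxidant response elements in its target genes. BACH1 competes with NRF2 for these elements and represses HMOX1 in particular. The pathway is set largely at the protein level, which these data do not measure.

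Library totals ran from 24458665 to 36212716 gene counts. BARD1, the targeted gene, was at 25.6 ± 3.26 CPM (read counts relative to the TMM-scaled library size; SD, n = 4) with control siRNA and at 3.96 ± 2.49 CPM (SD, n = 4) with BARD1 siRNA (log2 fold change -2.69, SE 0.36, adjusted p = 0.00397 in edgeR; exact two-sided permutation p = 0.0286, the smallest that 4 against 4 libraries allow). In number 4 the BARD1 siRNA library was at 7.59 CPM, above the 2.24 to 3.56 CPM of the other 3. The libraries numbered 4 stood apart in both groups, and mitochondrial genes took 3.26% and 4.44% of their counts against 0.695% to 2.02% in the other 6. Of the epithelial markers, KRT8, KRT18, KRT19 and CLDN4 were read in every library, while EPCAM and CDH1 were at 0 in 7 and 6 of the 8. KRT7, also epithelial, was at no more than 0.283 CPM. Of the mesenchymal markers, VIM ran from 1630 to 2040 CPM and ZEB1 from 57.6 to 101 CPM. FN1 was at 0.622 to 3.11 CPM and CDH2 at no more than 0.0561 CPM. The immune markers PTPRC and CD3E, the endothelial marker PECAM1 and 4 acinar markers matched no gene of the table and have no value here.

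Levels between genes were compared per length, as the FPKM that the authors deposited. With control siRNA NQO1 led at 225 ± 54.1 FPKM (SD, n = 4), followed by TXNRD1 at 184 ± 17.5 and GCLM at 71.7 ± 6.55 FPKM. NFE2L2 at 27.8 ± 1.56 FPKM and KEAP1 at 25.8 ± 1.66 FPKM lay close together, with ME1 at 19.4 ± 2.74, GCLC at 9.76 ± 0.580, SLC7A11 at 1.67 ± 0.356 and SRXN1 at 0.686 ± 0.306 FPKM below them. Most neighbours in this order were separated in all 4 control libraries. The ranges of NQO1 and TXNRD1 overlapped, and so did those of NFE2L2 and KEAP1. NFE2L2 was nevertheless above KEAP1 in each of the 4, by a ratio of 1.03 to 1.15.

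The order at the top differed with BARD1 siRNA. TXNRD1 then led at 321 ± 88.7 FPKM and NQO1 followed at 252 ± 59.7 FPKM (SD, n = 4 each), with overlapping ranges. The ratio of TXNRD1 to NQO1 was 1.52 to 1.77 in BARD1 siRNA libraries 1 to 3 and 0.571 in number 4. With control siRNA it was 0.923 to 1.002 in libraries 1 to 3 and 0.523 in number 4. GCLM, the modifier subunit of glutamate cysteine ligase, exceeded the catalytic subunit GCLC by 7.38-fold on average with control siRNA (5.95 to 8.13 over the 4 libraries) and by 7.39-fold with BARD1 siRNA (6.59 to 8.21), in FPKM. The excess of the modifier subunit was thus of like size under both siRNAs.

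**Figure D1:**
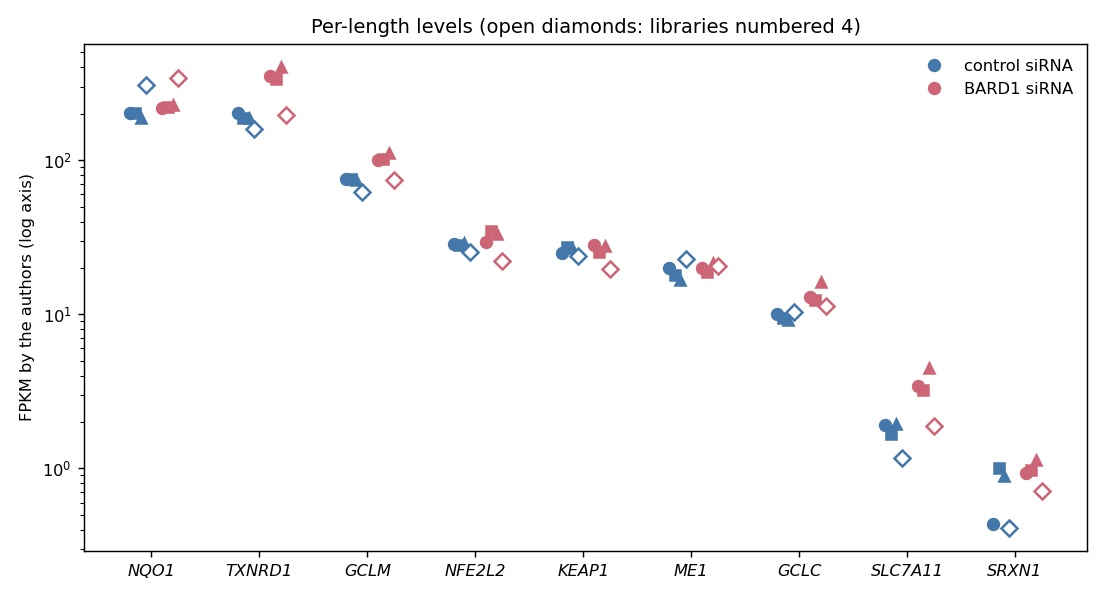
Deposited FPKM of the 9 genes on a log axis, in the order of their control means, with each library as a point (circle, square, triangle and open diamond for numbers 1 to 4; blue for control and red for BARD1 siRNA). NQO1, TXNRD1 and GCLM lie at the top and SLC7A11 and SRXN1 at the bottom under both siRNAs.

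With edgeR's quasi-likelihood test over all 8 libraries, 0 of the 9 genes passed an adjusted p of 0.05, beside 5.05% of all genes tested, 1.82% higher and 3.22% lower. At an unadjusted p under 0.05 there were 4, GCLC, GCLM, TXNRD1 and SLC7A11, each higher with BARD1 siRNA, where 18.9% of all genes passed that limit and 9.08% did so in the higher direction. The 2 libraries numbered 4 deviated together from their group means (correlation 0.858). Numbers 1 to 3 gave 0.523 to 0.615 for equal numbers and 0.379 to 0.535 for unlike ones. The labels state no pairing, and it rests mostly on number 4. The test was also fitted with the number as a blocking term, called the block here. In that fit 5 of the 9 rose, the same 4 and NQO1, and 0 fell, where 23.6% of all genes passed, 11% higher and 12.6% lower. DESeq2 without the block called 3, GCLC, TXNRD1 and SLC7A11, where 10.3% of all genes passed. The authors' deposited table lists the same 3 below 0.05, among 9.61% of its genes. Under edgeR without the block, upper-quartile scaling called 2 of the 9 (6.08% of all genes), no filter on low counts 2 (2.32%), RLE scaling 0 (4.83%) and the fit without BARD1 siRNA library 4 called 4 (16.9%). Of the 9 genes, 5 were higher in all 4 pairs of equal number, beside 18.7% of all genes tested. They were the same 5 that passed with the block, a fit to these same pair differences, so this is no separate support. The median log2 fold change of the 9 was 0.43 without the block and 0.42 with it, against 0.01 and 0.00 over all genes.

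**Figure D2:**
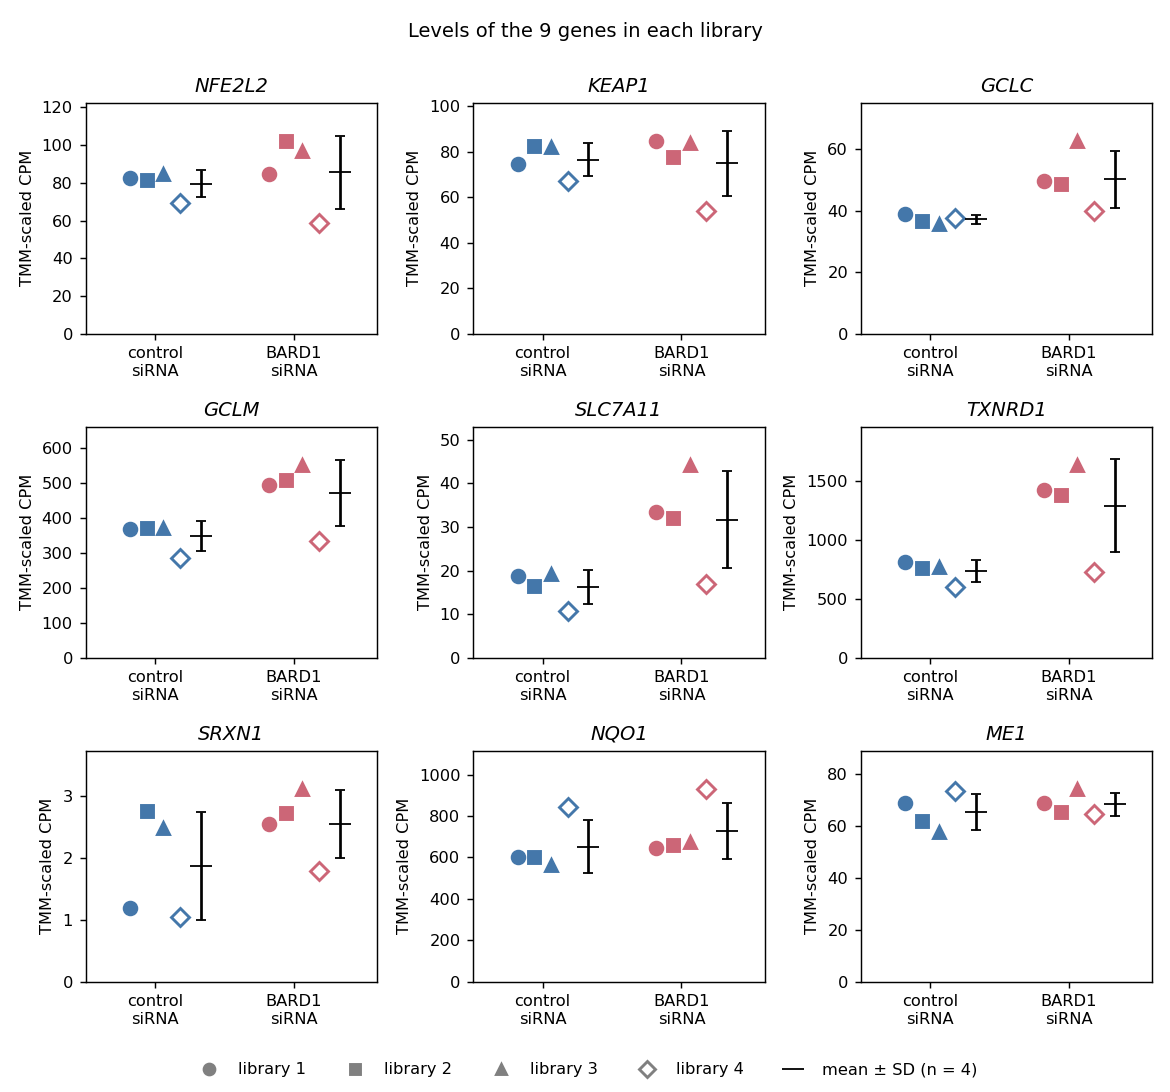
TMM-scaled CPM of each of the 9 genes in the 4 control siRNA and 4 BARD1 siRNA libraries, with the mean ± SD (n = 4) as a black bar beside each group. The open diamonds, the libraries numbered 4, are lowest in their group for GCLM, TXNRD1 and SLC7A11 and highest for NQO1.

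NFE2L2 (ENSG00000116044, GRCh37 chromosome 2, 178092323 to 178257425) was at 82.6, 81.8, 84.8 and 69.1 CPM in control siRNA libraries 1 to 4. With BARD1 siRNA it was at 84.9, 102, 97.1 and 58.7 CPM. The groups overlapped, and number 4 was lowest in both. The log2 fold change was 0.11 (SE 0.16, adjusted p = 0.81 in edgeR), and 0.08 with the block (SE 0.08, adjusted p = 0.518). Without both libraries numbered 4 it was 0.19 (SE 0.07, adjusted p = 0.0346), so the call on NFE2L2 rested on whether that pair was included. In that pair NFE2L2 was lower by a log2 difference of -0.24, against 0.04, 0.32 and 0.19 in pairs 1 to 3.

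KEAP1 (ENSG00000079999, chromosome 19, 10596796 to 10614417) was at 74.6, 82.6, 82.0 and 67.2 CPM with control siRNA. BARD1 siRNA libraries 1 to 4 held 84.6, 77.6, 83.8 and 53.9 CPM. Pairs 1 and 3 were higher with BARD1 siRNA and pairs 2 and 4 lower. KEAP1 did not pass any of the fits run, with a log2 fold change of -0.03 (SE 0.14, adjusted p = 0.953 in edgeR), -0.05 with the block (SE 0.08, adjusted p = 0.719) and 0.04 without the libraries numbered 4 (SE 0.06, adjusted p = 0.68).

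The 3 protein-coding genes nearest in pattern were sought among 9748 genes of at least 5 CPM. Likeness was the root mean square difference of log2 CPM over the 8 libraries, each gene centred on its own mean. For NFE2L2 they were ACER3 at 0.02, YAF2 at 0.04 and XRCC4 at 0.04, where the median gene was at 0.27. KEAP1 lay nearest to EIF4E2 at 0.04, CRLS1 at 0.05 and PHF16 at 0.05, with a median of 0.25. None of the other 8 genes studied was among these. All 8 libraries are shared by every such comparison, and the drop in number 4 is part of the likeness.

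With the block, the 3 genes of glutathione supply all rose. SLC7A11 (ENSG00000151012, chromosome 4, 139085251 to 139163503) encodes the light chain of the cystine and glutamate exchanger, which brings in the cysteine for glutathione. Its control siRNA libraries stood at 18.7, 16.5, 19.2 and 10.7 CPM and its BARD1 siRNA libraries at 33.5, 32.1, 44.2 and 17.04 CPM. Libraries 1 to 3 did not overlap between the groups, while BARD1 siRNA library 4 lay within the control range. The mean went from 16.3 ± 3.89 to 31.7 ± 11.2 CPM (SD, n = 4 each), 1.95-fold. This was a log2 fold change of 0.96 (SE 0.28, adjusted p = 0.0826 in edgeR), and with the block SLC7A11 rose by 0.93 (SE 0.10, adjusted p = 2.27e-05). It was the largest fitted change among the 9 genes in all 3 fits plotted here.

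GCLM (ENSG00000023909, chromosome 1, 94350761 to 94374966) was at 370, 373, 371 and 285 CPM with control siRNA, the first 3 libraries lying within 3 CPM of each other. With BARD1 siRNA it was at 496, 509, 552 and 336 CPM. Number 4 was low in both groups, and the difference had the same sign in every pair, from 0.24 in pair 4 to 0.57 in pair 3 on the log2 scale. The log2 fold change was 0.44 (SE 0.16, adjusted p = 0.157 in edgeR), and with the block GCLM rose by 0.42 (SE 0.06, adjusted p = 0.000183).

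GCLC (ENSG00000001084, chromosome 6, 53362139 to 53481768) encodes the catalytic subunit of the ligase that makes the first, rate-limiting step of glutathione synthesis. It was at 39.1, 36.6, 35.8 and 37.6 CPM with control siRNA and at 49.8, 48.7, 62.6 and 40.0 CPM with BARD1 siRNA. GCLC was the only one of the 9 whose groups did not overlap, as in 5.46% of all genes for the higher direction. The margin was narrow, since BARD1 siRNA library 4 exceeded control library 1 by under 1 CPM. Without the block the log2 fold change was 0.43 (SE 0.13, adjusted p = 0.0854 in edgeR), and with it GCLC rose by 0.42 (SE 0.10, adjusted p = 0.00631).

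Later steps and the partner of SLC7A11 were looked up by their role after the values had been seen. SLC3A2, which encodes the heavy chain of the exchanger, was at 170 ± 29.6 and 181 ± 42.0 CPM (n = 4 each, with SD; log2 fold change 0.09, SE 0.19, adjusted p = 0.881 in edgeR, and adjusted p = 0.406 with the block). GSS, whose enzyme completes glutathione, was at -0.13 (SE 0.08, adjusted p = 0.417), and GSR, whose enzyme reduces oxidised glutathione, at -0.10 (SE 0.14, adjusted p = 0.787). Neither passed with the block, and without both libraries numbered 4 GSS fell (adjusted p = 0.02).

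TXNRD1 (ENSG00000198431, chromosome 12, 104609557 to 104744061) encodes cytosolic thioredoxin reductase, a selenoprotein that passes electrons from NADPH to thioredoxin. The control siRNA libraries held 812, 757, 771 and 603 CPM, and the BARD1 siRNA libraries 1419, 1377, 1629 and 724 CPM. BARD1 siRNA libraries 1 to 3 lay far above every control library, and number 4 lay among the controls. Its mean went from 736 ± 91.5 to 1287 ± 391 CPM (SD, n = 4 each), 1.75-fold. The log2 fold change was 0.81 (SE 0.22, adjusted p = 0.0665 in edgeR), and with the block TXNRD1 rose by 0.75 (SE 0.09, adjusted p = 8.49e-05). TXNRD1 spans a ribosomal pseudogene and EID3 on the same strand, whose mean counts of 220 and 152 reads are small beside its own. The difference in pair 4 was 0.26 on the log2 scale against 0.81, 0.86 and 1.08 in pairs 1 to 3.

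Its paralogues, also looked up after the values were seen, did not pass. TXNRD2, the mitochondrial reductase gene, was at 45.2 ± 2.60 and 40.3 ± 2.46 CPM (n = 4 each, with SD; log2 fold change -0.17, SE 0.08, adjusted p = 0.316 in edgeR, and adjusted p = 0.082 with the block). TXNRD3 was at -0.11 (SE 0.22, adjusted p = 0.863). TXN, the thioredoxin gene itself, was at 254, 253, 269 and 230 CPM with control siRNA and at 287, 304, 356 and 218 CPM with BARD1 siRNA. It was thus higher in 3 pairs and lower in pair 4 (0.21, SE 0.14, adjusted p = 0.462, and adjusted p = 0.0552 with the block), and without both libraries numbered 4 it rose (adjusted p = 0.000692).

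SRXN1 (ENSG00000271303, chromosome 20, 627259 to 634014) encodes sulfiredoxin, which repairs overoxidised peroxiredoxins. Only 29, 66, 79 and 33 reads were counted with control siRNA and 91, 84, 90 and 53 with BARD1 siRNA. The groups overlapped, and the log2 fold change of 0.45 (SE 0.36, adjusted p = 0.59 in edgeR, and adjusted p = 0.203 with the block) had the widest error of the 9. The gene lies almost wholly inside a clone-named protein-coding entry (ENSG00000270299) on the same strand at 627270 to 656444 with 3 to 24 reads per library. Whether reads shared by both were counted for either is unknown here, so the level of SRXN1 is uncertain.

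NQO1 (ENSG00000181019, chromosome 16, 69740899 to 69760854) encodes a quinone reductase and is a standard readout of NRF2 activity. With control siRNA it was at 601, 601, 563 and 844 CPM, and with BARD1 siRNA at 648, 662, 674 and 929 CPM. Unlike GCLM and SLC7A11 it was highest in number 4, by 0.52 on the log2 scale over the mean of controls 1 to 3 and by 0.49 in the BARD1 siRNA group. The pairs differed by 0.11, 0.14, 0.26 and 0.14, a small difference of the same sign each time. The log2 fold change was 0.16 (SE 0.16, adjusted p = 0.687 in edgeR), and with the block NQO1 rose by 0.16 (SE 0.05, adjusted p = 0.0313). The genes nearest to it in pattern were IL27RA at 0.04, PSAP at 0.05 and MAN1B1 at 0.06, with a median of 0.33.

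ME1 (ENSG00000065833, chromosome 6, 83920108 to 84140797) encodes cytosolic malic enzyme, a source of NADPH. It was at 68.7, 61.9, 57.9 and 73.6 CPM with control siRNA and at 68.9, 65.5, 74.2 and 64.8 CPM with BARD1 siRNA. The groups overlapped throughout, and ME1 passed in none of the 3 fits plotted (0.06, SE 0.09, adjusted p = 0.82 in edgeR, and adjusted p = 0.133 without both libraries numbered 4).

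**Figure D3:**
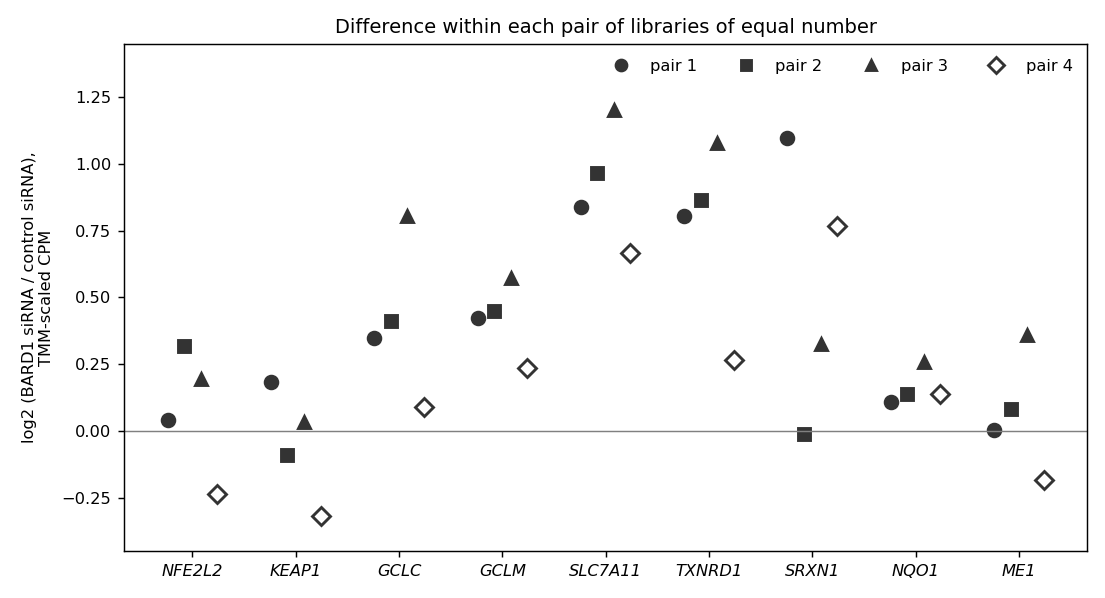
Log2 ratio of BARD1 siRNA to control siRNA CPM within each pair of libraries of equal number, 4 points per gene (open diamond for pair 4). GCLC, GCLM, SLC7A11, TXNRD1 and NQO1 lie above 0 in all 4 pairs, and pair 4 is the lowest of the 4 for every gene but SRXN1 and NQO1.

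In the pair numbered 4 the size of the difference was under that of the mean of pairs 1 to 3 in 5 of the 9 genes, close to the 50.7% of all genes. Measured against the mean of pairs 1 to 3, the log2 difference in pair 4 was smaller by 0.65 for TXNRD1, 0.43 for GCLC, 0.33 for SLC7A11 and 0.24 for GCLM. For NQO1 the pairs differed by -0.03, the fifth of these genes. SRXN1 was larger in pair 4, by 0.30. NFE2L2, KEAP1 and ME1 were lower with BARD1 siRNA in pair 4, by log2 differences of -0.24, -0.32 and -0.19, where the means of pairs 1 to 3 were 0.18, 0.04 and 0.15. With only 1 library per siRNA in it, these sizes carry no test. Without both libraries numbered 4, 6 of the 9 genes rose, the 5 above and NFE2L2, where 15% of all genes rose.

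**Figure D4:**
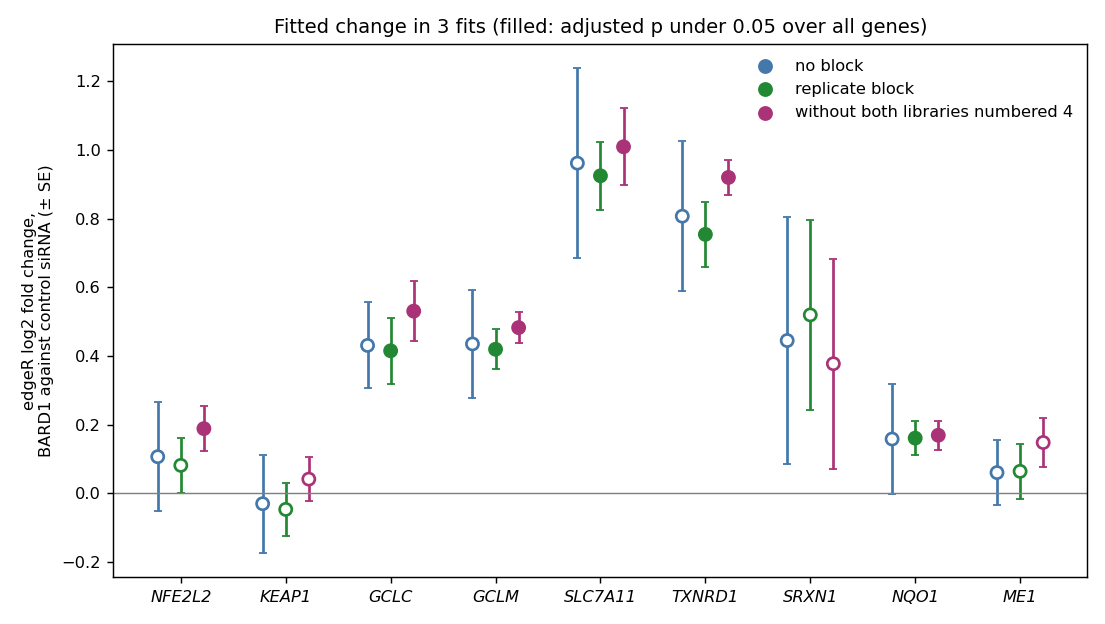
Log2 fold change ± SE from edgeR for the 9 genes without the block (blue), with the replicate block (green) and without both libraries numbered 4 (purple). Filled circles passed an adjusted p of 0.05 over all genes, which were 0, 5 and 6 of the 9 genes. SLC7A11 and TXNRD1 are highest in all 3 fits and KEAP1 lies near 0.

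The promoters of the 9 genes were searched for the antioxidant response element core, TGACNNNGC on either strand, in RefSeq windows of 250 bases before to 50 bases after a gene start (GRCh38.p14). The table held 11 windows for 8 of the 9 genes. SLC7A11 had none. The core stood in 5 of the 11, those of GCLM, ME1, both TXNRD1 starts and the downstream KEAP1 start, beside 13.3% of 35116 windows in the table. The sites below show which of the genes with higher and with near-equal levels carry the core. Each is printed in the direction of its gene, and capitals mark the 9 bases of the core, which appear as the reverse complement where the core lies on the other strand.

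GCLM at chr1:93909456-93909464, minus strand: cgatttctGCTTAGTCAttgtcttc
TXNRD1 upstream start at chr12:104215680-104215688, plus strand: acgggctaTGACTTCGCtgttgtca
TXNRD1 upstream start at chr12:104215771-104215779, plus strand: gtccttcgGCTCCGTCAgttcccac
TXNRD1 downstream start at chr12:104286930-104286938, plus strand: ggatttctGCTTTGTCAttctgact
KEAP1 at chr19:10502817-10502825, minus strand: ttttattgTGACACGGCgggcgccc
KEAP1 at chr19:10502794-10502802, minus strand: ccggctctGCTTAGTCAtggtgacc
ME1 at chr6:83431180-83431188, minus strand: tcctgccaTGACTCAGCgcttctcg
ME1 at chr6:83431032-83431040, minus strand: tgcagtcaGCACCGTCAccccagca

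The GCLM core and the second KEAP1 core hold the same 9 bases, TGACTAAGC when read in the direction of the motif. They lie 34 to 26 bases before the GCLM start and 31 to 23 before the downstream KEAP1 start. Both printed KEAP1 sites belong to that downstream start, and the window of the upstream KEAP1 start held no core. In ME1 the upstream core, TGACTCAGC, overlaps the AP-1 element TGANTCA (either strand), which stood in 1 of the 11 windows and in 7.71% of all. Cores therefore stood beside genes with a called rise under the block, GCLM and TXNRD1, and beside KEAP1 and ME1, which did not pass. No core was found in the windows of NQO1, GCLC, SRXN1 and NFE2L2, which says only that these letters are not within this window.

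The 3′ UTRs were searched for an octamer, ATACAGAA, and its heptamers ATACAGA and TACAGAA. Earlier work picked this octamer from genes that fell in these same data, so its presence in genes that fell is no independent result. It was in 0 of the 9 members and in 5.33% of tested genes with a UTR. GCLC and SLC7A11 hold a heptamer without the octamer, 2 of the 9, beside 16.3% of tested genes. Of the genes named below that fell, ABCC2 holds the octamer, ME2 and RPE hold a heptamer, and BACH1, CHAC2 and GPX8 hold neither. BTRC, which rose, also holds a heptamer.

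The wider pathway was read from 5 lists that share some members and hold 123 tested genes in all, of which 13 passed without the block. The shares called below stand against 5.05% of all genes without the block and 23.6% with it. Among regulators and partners of NRF2, 2 of 15 tested genes rose and 1 fell (20% called), and with the block 4 rose and 3 fell (46.7%). The median log2 fold change was 0.11. SQSTM1, the autophagy receptor gene whose protein binds KEAP1 and is itself an NRF2 target, went from 171 ± 11.7 to 298 ± 53.1 CPM (SD, n = 4 each; 0.81, SE 0.13, adjusted p = 0.00854 in edgeR), 1.75-fold higher. Its BARD1 siRNA libraries held 300, 294, 365 and 235 CPM, all above the highest control library at 187 CPM.

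BACH1, the gene of the competing repressor, fell from 46.3, 40.3, 44.5 and 29.5 CPM in control siRNA libraries 1 to 4 to 21.9, 25.3, 28.2 and 20.03 CPM with BARD1 siRNA. The groups did not overlap, as in 7.52% of all genes for the lower direction. The highest BARD1 siRNA library lay just under control library 4. Its log2 fold change was -0.75 (SE 0.16, adjusted p = 0.0283 in edgeR). BTRC, the gene of a KEAP1-independent ligase adaptor that also targets NRF2, rose from 36.5 ± 2.51 to 47.3 ± 3.005 CPM (SD, n = 4 each; 0.38, SE 0.09, adjusted p = 0.037). Leaving out any library numbered 1 to 3 left BACH1 short of the threshold (adjusted p up to 0.109). BTRC passed only when BARD1 siRNA library 4 was the one left out (adjusted p at most 0.138 otherwise), and it did not pass without the filter on low counts (adjusted p = 0.0832).

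CUL3, the scaffold of the KEAP1 ligase, was at 209 ± 30.4 and 190 ± 31.9 CPM (SD, n = 4 each; -0.14, SE 0.15, adjusted p = 0.693 in edgeR), and NFE2L1, a related factor gene, at -0.05 (SE 0.07, adjusted p = 0.809). Of the small MAF genes, which the naming rule did not select, MAFF and MAFG rose with the block by 0.33 and 0.39 and MAFK fell by 0.49 (adjusted p = 0.02, 0.00601 and 0.00223).

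Of 26 further NRF2 target genes tested, 3 rose and 1 fell (15.4% called), and with the block 9 rose and 1 fell (38.5%). Their median log2 fold change was 0.17. HMOX1, the haem oxygenase gene, was at 30.2 to 35.8 CPM with control siRNA and at 165, 160, 252 and 87.8 CPM with BARD1 siRNA (2.34, SE 0.26, adjusted p = 0.00168 in edgeR). FTL, the ferritin light chain gene, rose from 2756 ± 185 to 3504 ± 138 CPM (SD, n = 4 each; 0.35, SE 0.08, adjusted p = 0.0418), with all BARD1 siRNA libraries above all controls. SLC48A1, a haem transporter gene, rose from 16.3 ± 1.62 to 23.9 ± 2.30 CPM (0.56, SE 0.12, adjusted p = 0.026). BLVRB, a haem degradation gene of the same list singled out after its value was seen, was at -0.13 (SE 0.18, adjusted p = 0.79).

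The target that fell was ABCC2, a drug export gene, at -0.67 (SE 0.12, adjusted p = 0.0153 in edgeR). FTH1, the ferritin heavy chain gene, was at 0.50 (SE 0.15, adjusted p = 0.102) and rose with the block (adjusted p = 0.00918). PRDX1, a peroxiredoxin gene, was at 0.10 (SE 0.13, adjusted p = 0.766). FTL and SLC48A1 did not pass once any library numbered 1 to 3 was left out, and ABCC2 passed among these only without number 3 of the BARD1 siRNA group (adjusted p at most 0.162, in FTL). Without the filter on low counts FTL did not pass either (adjusted p = 0.186).

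**Figure D5:**
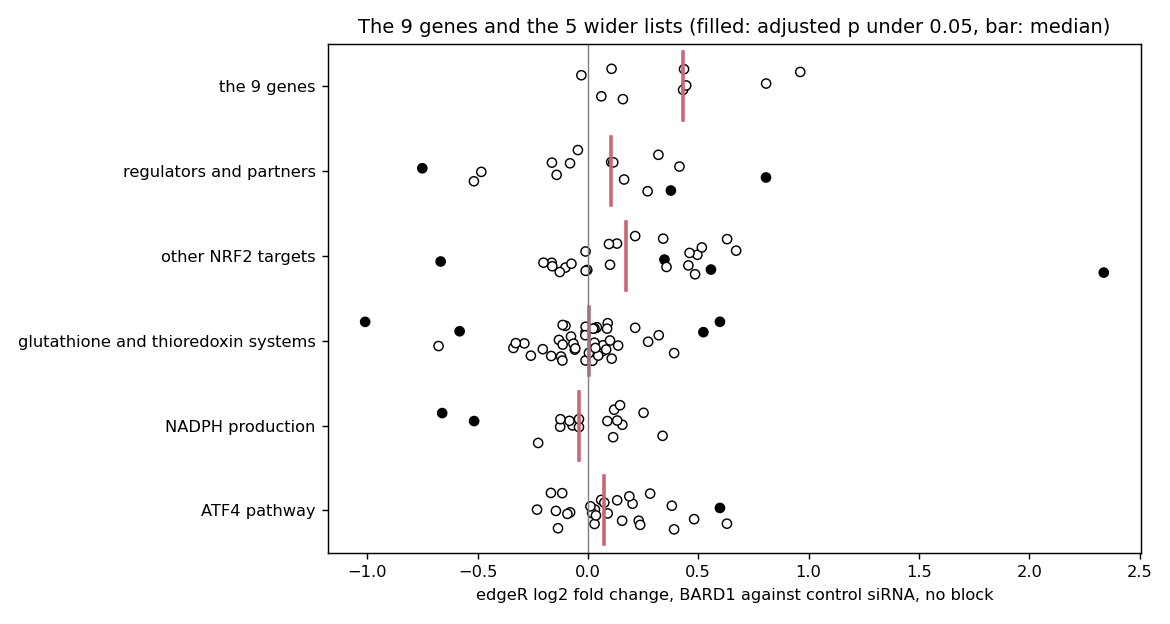
Log2 fold change without the block (horizontal axis) for each tested gene of the 9 and of the 5 wider lists (rows), with filled points past an adjusted p of 0.05 and a red bar at the list median. The filled points are 0, 3, 4, 4, 2 and 1 from top to bottom, and HMOX1 is the point at 2.34.

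In the glutathione and thioredoxin systems 2 of 47 tested genes rose and 2 fell (8.51% called), with a median log2 fold change of 0.00. With the block 3 rose and 3 fell, and that share, 12.8%, was below the share of all genes. CHAC2, of an enzyme that breaks glutathione down, fell from 19.4 ± 3.40 to 9.63 ± 0.991 CPM (SD, n = 4 each; -1.01, SE 0.15, adjusted p = 0.00731 in edgeR). GPX8, a peroxidase gene of the endoplasmic reticulum, fell by 0.58 (SE 0.11, adjusted p = 0.0181). TXNIP, whose protein binds and inhibits thioredoxin, rose from 132 ± 11.96 to 190 ± 17.8 CPM (0.52, SE 0.10, adjusted p = 0.0177), with all BARD1 siRNA libraries above all controls. SESN2, a stress-induced gene that is also on the ATF4 list, rose by 0.60 (SE 0.13, adjusted p = 0.0314). GPX8 and SESN2 did not pass once any library numbered 1 to 3 was left out, nor TXNIP without 5 of these libraries (adjusted p up to 0.114 in SESN2), while CHAC2 passed with each library left out in turn. PRDX6 was at 0.03 (SE 0.08, adjusted p = 0.914).

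NADPH production showed 0 rises and 2 falls among 17 tested genes (11.8% called), and 2 rises and 3 falls with the block (29.4%), with a median of -0.04. ME2, the mitochondrial counterpart of ME1, fell from 200 ± 14.0 to 127 ± 12.2 CPM (SD, n = 4 each; -0.66, SE 0.09, adjusted p = 0.005 in edgeR), while ME1 did not pass. RPE, of the pentose phosphate pathway, fell from 96.1 ± 5.94 to 67.2 ± 2.04 CPM (-0.52, SE 0.07, adjusted p = 0.00574). TKT, also of that pathway, was at 0.16 (SE 0.08, adjusted p = 0.335) and rose with the block (adjusted p = 0.033), and PGD was at 0.12 (SE 0.07, adjusted p = 0.42).

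SLC7A11 is also a known target of ATF4, the factor of the amino acid response. Of 27 genes on the ATF4 list SESN2 alone passed, a rise (3.7% called). With the block 5 rose, SESN2, DDIT4, CEBPB, TRIB3 and SHMT2, and 1 fell, PSPH (22.2%). Only when both directions were pooled were these shares near the 5.05% and 23.6% of all genes. By direction, the calls on the list were mostly rises. With the block 5 of the 27 rose and 1 fell, where 11% of all genes rose and 12.6% fell. Without the block the 1 call was a rise, where 1.82% of all genes rose. The median on the list was 0.07. SLC7A5, an amino acid exchanger gene with the same heavy chain as SLC7A11, was at 480, 459, 472 and 258 CPM with control siRNA and at 492, 487, 490 and 287 CPM with BARD1 siRNA (0.07, SE 0.23, adjusted p = 0.922 in edgeR, and adjusted p = 0.26 with the block). It dropped in number 4 as SLC7A11 did. EIF2AK1, a kinase gene upstream of ATF4, was at -0.12 (SE 0.07, adjusted p = 0.431).

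The summed level of the epithelial marker list ran from 2339 to 3291 CPM with control siRNA and from 2856 to 4713 CPM with BARD1 siRNA. All 4 of its tested genes rose with the block and 0 passed without it. Of the endothelial list, CDH5 alone was tested and rose by 0.92 on the log2 scale, within 3.49 to 10.2 CPM, while KDR was at no more than 0.0281 CPM. CDH5 did not pass once any library numbered 1 to 3 was left out. With the block 2 of 3 tested mesenchymal genes rose, 1 of 3 fibroblast genes fell, and CD14, the tested gene of the immune list, fell by 0.67, while 0 of these passed without it. The part of these markers in the differences above was not tested.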

How the data were processed

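The deposited table held read counts per gene, as whole numbers, for 8 libraries. Tools named in the submitters' processing notes are featureCounts, HISAT2 version 2.0.5 and fastp, with GRCh37 as the build. No source used here gives the annotation release or the strand setting, and reads of antisense or overlapping genes cannot be told apart. FPKM values by the authors equalled count over gene length and column total, with a largest relative deviation of 5e-12. Log2 fold changes and p-values of the authors' own comparison were also deposited, with no tool named. A further 8 columns of single samples were left unused. Of 48162 rows, 22217 named no gene and held 0 reads.

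The counts went into edgeR 4.0.16 under R 4.3.3: filterByExpr, TMM scaling, quasi-likelihood F-test, 4 against 4 libraries, two-sided, Benjamini-Hochberg adjustment over 14528 genes, threshold 0.05. Each standard error (SE) is that implied by the F statistic. Alternatives were RLE and upper-quartile scaling, DESeq2 (version 1.42.0), no filter, a replicate block and libraries left out. Group ranges and pair differences used TMM-scaled CPM. A floor of 3 counts was worth 0.0828 to 0.123 CPM and covers counting error only.

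Libraries sharing a number had correlated deviations from their group means, 0.523, 0.525, 0.615 and 0.858 for numbers 1 to 4 over 9308 genes, so the numbers were taken to pair them. Unlike numbers among 1 to 3 gave 0.379 to 0.535, so the pairing rests mostly on number 4. No library pair within a group agreed within sampling noise (chi-square per degree of freedom of at least 6.05).

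The members, the lists and the tests were chosen with earlier results of these data known. Named genes were the 9 members, BARD1, and from each list up to 6 genes past the threshold and the 2 of highest mean CPM that did not pass, with the 3 genes nearest in pattern to NFE2L2, KEAP1 and NQO1. Of the listed pathway symbols, WDR23, CES1 and GPX7 matched no gene of the table. 3′ UTRs came from GENCODE release 29, with 1 transcript per gene, and promoters from RefSeq. They were matched by identifier and symbol, without converting coordinates.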

Additional observations from a re-analysis of the deposited data

Results flagged for a closer look

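Dixon's criterion was applied to the 9 genes and BARD1 in both groups, which makes 20 sets of 4 libraries. It marked 4 sets with 1 distant library, and about 1 in 20 is marked by chance. The distant library had the number 4 each time. NQO1 was at 844 CPM in control siRNA library 4 against 563 to 601 CPM in the other 3. In BARD1 siRNA library 4 NQO1 was at 929 CPM against 648 to 674 CPM. GCLM was at 285 CPM in control siRNA library 4 against 370 to 373 CPM, and BARD1 at 20.8 CPM against 26.9 to 28.0 CPM. The mitochondrial share of counts was also highest in these libraries, and its part in these values was not tested.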

How the results depend on the processing

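The count of the 9 genes past the threshold, 0 without the block, was 5 with the replicate block, 6 without both libraries numbered 4, 3 with DESeq2 (GCLC, TXNRD1, SLC7A11), 2 with upper-quartile scaling (GCLC at an adjusted p of 0.05 to 3 digits and TXNRD1 at 0.0413), 2 without the filter on low counts (TXNRD1 and SLC7A11), and 0 with RLE scaling. Leaving out a library gave 0 to 4, the 4 without BARD1 siRNA library 4. Over all genes 733 passed, against 3430 with the block, 4428 without both libraries numbered 4, 1264 with DESeq2 and 178 to 2506 with a library left out (178 without control siRNA library 3, 2506 without BARD1 siRNA library 4). Of the 123 genes of the wider lists 13 passed, 33 with the block, 51 without both libraries numbered 4 and 5 to 26 with a library left out (26 without BARD1 siRNA library 4). The cause of these shifts was not tested. Upper-quartile scaling split the calls into 413 higher and 470 lower, against 265 and 468. Among fitted log2 fold changes KEAP1 turned from -0.03 to 0.0416 without both libraries numbered 4. With a library left out KEAP1 ran from -0.0934 to 0.0987, SLC7A5 from -0.1024 to 0.2311, TXNRD3 from -0.3426 to 0.0249, SLC3A2 from -0.0312 to 0.2445 and GSR from -0.1825 to 0.0155, none of them past the threshold. The other members of the 9 kept their sign under every alternative run. Without the filter on low counts FTL and BTRC did not pass (adjusted p = 0.186 and 0.0832). The few reads of SRXN1 limit its precision.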
